A study of Mus musculus with 5 samples.

Results

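Expression of 10 transcription factors that pattern the mesenchyme of the Müllerian duct and its neighbouring urogenital tissues was examined in stromal cells of the mouse oviduct. The 10 genes are Emx2, Wt1, Tcf21, Hand2, Tbx18, Foxf1, Gata2, Gata6, Twist2 and Osr1, chosen by name and all present among the 23857 genes with deposited values. The samples were sorted YFP-positive cells of the oviduct, or fallopian tube, from young adult females, and each of 5 mice gave 1 bulk RNA-seq library. All mice carried Pdgfra-Cre, a recombinase under the promoter of the mesenchymal receptor gene Pdgfra, and the R26Y reporter, which turns on YFP in cells where the recombinase has acted. The 2 controls (mice 2 and 3) are otherwise labelled wild-type, and the 3 conditional knockouts (mice 1, 2 and 3) carried floxed alleles of Esr1, written Esr1(fl/fl), as well. The estrous stage, the exact age and whether the mice were littermates are not given in the sources used here.

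The oviduct, uterus and upper vagina form from the Müllerian ducts, epithelial tubes that are wrapped in mesenchyme. The factors named here are DNA-binding proteins of that mesenchyme or of the coelomic and intermediate mesoderm from which it arises, and several stay on in adult stroma, where they hold regional identity. Esr1 encodes estrogen receptor alpha, through which estrogen acts on the stroma and, by way of stromal signals, on the epithelium. The comparison asks whether these identity factors differ when Esr1 is deleted in stromal cells.

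Esr1 itself did not separate the groups. It was at 83.3 and 77.6 TPM (a transcript level corrected for transcript length and library size) in controls 2 and 3, and at 28.9, 85.0 and 170 TPM in the knockout-labelled libraries 1, 2 and 3. The level in mice 2 and 3 thus goes against the label. Gene-level values cannot reveal loss of a floxed exon, so groups are called by their labels throughout. The stromal identity genes were present in all 5 libraries, with Dcn, a matrix proteoglycan, at 6764 to 10110 TPM and Pdgfra at 165 to 298 TPM. Markers of other cell types were also present, among them the oviduct secretory gene Ovgp1 at 1522 to 11258 TPM and the myeloid gene Lyz2 at 552 to 2125 TPM. Rpph1, the RNA of ribonuclease P, took 18.6% and 21.3% of all TPM in the controls and 22.3%, 14.3% and 13.1% in knockout-labelled mice 1, 2 and 3. This share scales every other TPM value. With Rpph1 and the ribosomal RNA gene Rn45s removed, the log2 fold changes of Wt1, Gata6 and Twist2 were 0.44, -0.59 and -0.58. Between 15841 and 19432 genes reached 1 TPM per library. TPM keeps no read depth, so no counting error can be attached to a value, and the number of mice limits the precision. In such bulk samples fewer cells of a type and less RNA per cell cannot be told apart.

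Across the 5 libraries the 10 factors differed widely in level. Wt1 was highest with a mean of 181 TPM, followed by Tcf21 at 115, Gata6 at 69.8, Emx2 at 65.0, Gata2 at 46.5, Osr1 at 39.2, Twist2 at 19.9, Hand2 at 9.71, Foxf1 at 1.97 and Tbx18 at 1.87 TPM. Wt1 exceeded Tcf21, and Tcf21 exceeded Gata6, in 5 of 5 libraries. Gata6 and Emx2, Gata2 and Osr1, and Foxf1 and Tbx18 changed places from library to library, the first of each pair being higher in 3 of 5, so their order is not fixed. Foxf1 and Tbx18 each fell under 1 TPM in 1 library. The summed level of the 10 genes was 545 and 515 TPM for the controls, against 560, 587 and 542 TPM for the knockout-labelled libraries. The sum therefore overlapped between the groups.

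**Figure D1:**
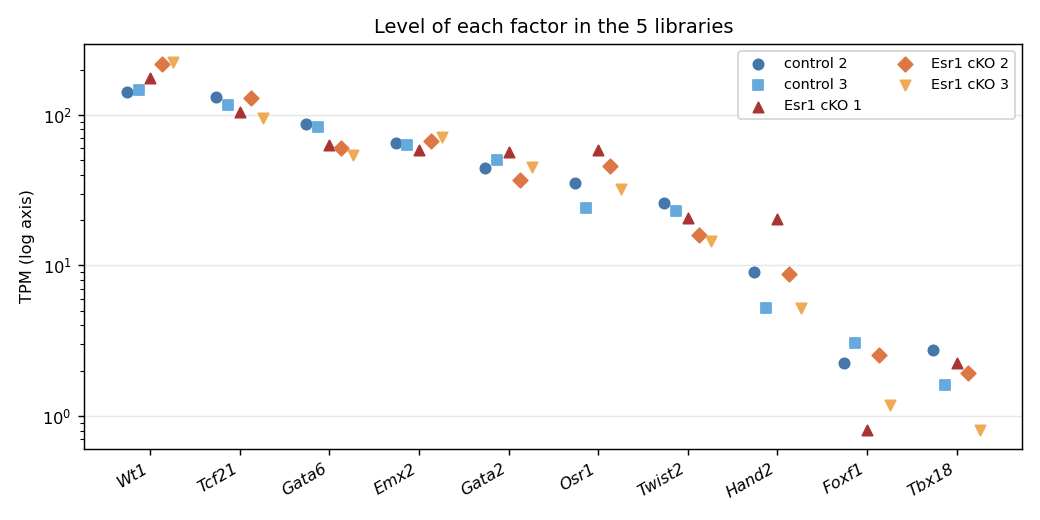
TPM of each of the 10 factors (log axis) in the 5 libraries, ordered by mean level, with 1 point per mouse (Esr1 cKO, the knockout-labelled mice). Wt1 lies above both controls and Gata6 and Twist2 below both controls in all 3 knockout-labelled libraries, and Hand2 stands out at 20.3 TPM in mouse 1.

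None of the 10 factors passed an adjusted p of 0.05 (limma on log2(TPM + 1), Benjamini-Hochberg over 19292 tested genes), a rule that called 0.0259% of all tested genes, or 5 (0.0104% higher and 0.0156% lower). At an unadjusted p under 0.05 there were 3 of the 10, Wt1 higher and Gata6 and Twist2 lower, where 3.7% of all tested genes were higher and 9.87% lower. The same 3 factors were the ones whose groups did not overlap, where 33.9% of all tested genes had no overlap, 11.9% above and 21.9% below both controls. The median log2 fold change of the 10 was -0.11, beside -0.022 over all tested genes, with 4 above and 6 below 0 (47.8% and 52.2% of all tested genes). Without control mouse 2 the log2 fold changes of Wt1, Gata6 and Twist2 were 0.48, -0.49 and -0.43. Without control mouse 3 they were 0.53, -0.56 and -0.60. Each of these fits leaves a lone control, so no p-value is given for them. The median log2 range of the factors was 0.18 between the controls and 0.54 among the knockout-labelled libraries (0.21 and 0.54 over all tested genes). A range over more libraries tends to be wider at the same spread, so the groups are not compared by it.

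**Figure D2:**
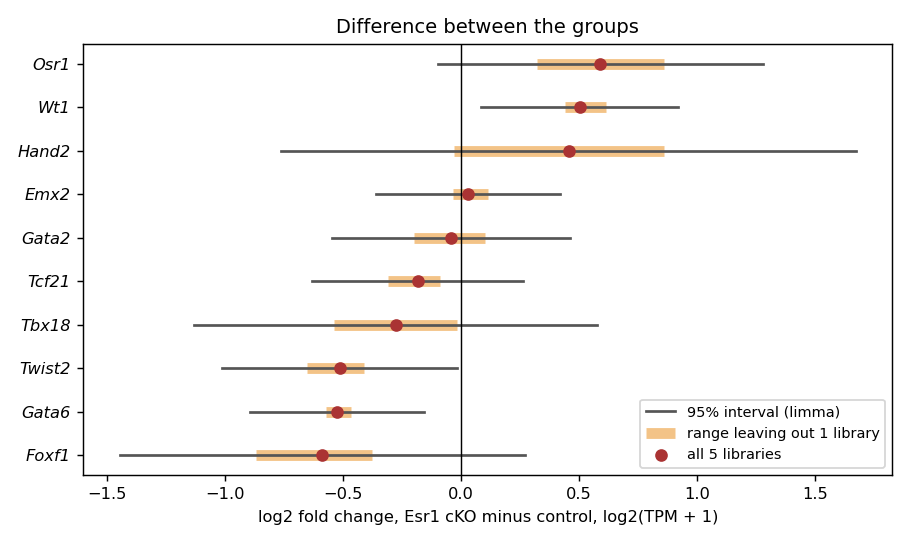
Log2 fold change of each factor on the log2(TPM + 1) scale, knockout-labelled libraries minus controls, with the 95% interval from limma (line) and the range over 5 refits with a library removed in turn (bar). The intervals of Wt1, Gata6 and Twist2 exclude 0 before adjustment, and Hand2 has the widest.

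The first group holds Wt1, Emx2 and Osr1, factors of intermediate mesoderm and coelomic lining. Wt1 encodes the zinc-finger protein first known from Wilms tumour, active in kidney, gonad, mesothelium and adult reproductive stroma. It was at 141 and 146 TPM in controls 2 and 3 and at 175, 218 and 223 TPM in the knockout-labelled libraries 1, 2 and 3. All 3 lay above both controls, mouse 1 by the least. The control mean was 144 ± 3.64 TPM (SD, n = 2) and the knockout-labelled mean 205 ± 26.4 TPM (SD, n = 3), a ratio of 1.43. In limma the log2 fold change came to 0.50 (standard error 0.18, unadjusted p 0.0246, adjusted p 0.317). Without the library of knockout-labelled mouse 1 it was 0.61 with an adjusted p of 0.0326 (limma). That fit called 5.35% of all tested genes higher and 2.63% lower. The library left out is the one with the lowest Esr1, and without it the log2 fold change of Esr1 was 0.57.

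Emx2, a homeobox factor without which the urogenital ducts fail to persist, was at 65.2 and 62.8 TPM for the controls, against 58.1, 67.2 and 71.6 TPM for the knockout-labelled libraries. The groups overlapped and the library labelled knockout 1 was lowest. The log2 fold change of 0.030 (limma, adjusted p 0.938) had a 95% interval of -0.36 to 0.42, and its sign turned with quantile normalization (-0.099).

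Osr1, an odd-skipped zinc-finger factor that marks intermediate mesoderm early, was at 35.3 and 24.0 TPM for the controls, against 58.7, 46.0 and 32.2 TPM for the knockout-labelled libraries. Knockout-labelled mice 1 and 2 lay above both controls and mouse 3 between them. Its log2 fold change of 0.59 (standard error 0.29) did not pass (limma, adjusted p 0.413). That was the highest of the 10 in the main fit, but Wt1 was higher without control mouse 3 (Osr1 0.32) or without knockout-labelled mouse 1 (Osr1 0.39). Hand2 was higher without knockout-labelled mouse 3 (Osr1 0.82). With all libraries, Hand2 was higher under quantile normalization (0.56, Osr1 0.49). Wt1 was higher with library weights (0.57, Osr1 0.56) or a replicate block (0.61, Osr1 0.39). For Osr1, leaving out control mouse 2 gave 0.86.

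The GATA zinc-finger factors take part in both stromal and blood cell programmes. Gata6, known from heart, gut mesenchyme, mesothelium and gonad, was at 87.6 and 83.5 TPM in the controls. In the knockout-labelled libraries it was at 63.2, 60.3 and 54.3 TPM. All 3 lay below both controls, and the controls differed little. The control mean was 85.6 ± 2.86 TPM (SD, n = 2) and the knockout-labelled mean 59.2 ± 4.53 TPM (SD, n = 3), a ratio of 0.692. In limma the log2 fold change came to -0.53 (standard error 0.16, unadjusted p 0.0122, adjusted p 0.258), the lowest p of the 10. Without knockout-labelled mouse 1, the library with the lowest Esr1, it was -0.57 with an adjusted p of 0.0440 (limma). That fit called 5.35% of all tested genes higher and 2.63% lower. Removing each library in turn gave Gata6 values from -0.57 to -0.46.

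Gata2, which in uterine stroma and epithelium works with the progesterone receptor and in mast and endothelial cells has roles of its own, was at 44.0 and 49.98 TPM for the controls, against 56.7, 37.2 and 44.8 TPM for the knockout-labelled libraries. The groups overlapped, with knockout-labelled mouse 1 above and mouse 2 below both controls. The log2 fold change was -0.042, with a 95% interval of -0.55 to 0.46 (limma, adjusted p 0.934), and it was 0.0050 with median-of-ratios scaling. Mast cell markers summed to 325 and 388 TPM in the controls and to 103, 119 and 128 TPM in the others. Of the 7 mast genes 6 lay below both controls in all 3, where 21.9% of all tested genes did. Fcer1a, the receptor subunit for IgE, was listed at 0 in knockout-labelled mouse 3. The part of these mast genes in the Gata2 level was not tested.

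The basic helix-loop-helix factors Tcf21, Hand2 and Twist2 bind DNA as dimers at E-boxes, the letters CANNTG. Their promoters are printed because these 3 related genes differed in how the libraries fell. Only Twist2 separated the groups, while Tcf21 and Hand2 overlapped. The window searched runs from 250 bases before to 50 after the RefSeq start (GRCm38.p6, the build named mm10 elsewhere), and its first 200 bases, upstream of the start, are printed in the sense of the gene. Capitals mark every CANNTG and every GGTCA or its complement TGACC, which is one arm of the estrogen response element.
Twist2, chr1:91801211-91801410, plus strand: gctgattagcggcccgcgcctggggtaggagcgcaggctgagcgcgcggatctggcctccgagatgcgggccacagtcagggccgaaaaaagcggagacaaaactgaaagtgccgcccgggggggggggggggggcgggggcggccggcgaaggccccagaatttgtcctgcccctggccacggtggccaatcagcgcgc
Hand2, chr8:57320733-57320932, plus strand: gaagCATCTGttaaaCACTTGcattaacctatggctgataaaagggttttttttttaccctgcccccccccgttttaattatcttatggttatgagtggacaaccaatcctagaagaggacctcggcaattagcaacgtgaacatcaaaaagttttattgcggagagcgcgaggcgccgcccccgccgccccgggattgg
Tcf21, chr10:22820194-22820393, minus strand: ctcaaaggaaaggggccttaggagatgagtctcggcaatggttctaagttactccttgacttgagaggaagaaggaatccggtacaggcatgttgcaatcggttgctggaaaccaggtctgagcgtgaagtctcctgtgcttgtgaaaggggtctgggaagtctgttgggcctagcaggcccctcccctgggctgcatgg

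The Hand2 window held 2 matches to CANNTG, both within its first 21 bases, and those of Twist2 and Tcf21 held 0. Among 32851 promoters of this length, 72.3% had at least 1 such match on either strand. A GGTCA element, found in 40.5% of all promoters, was in none of the 3, and the palindromic estrogen response element, both arms with 3 bases of any kind between them, found in 0.0700%, was in none of the promoters of the 6 factors that the sequence table holds. The other promoters read were those of Gata2 (2 starts, each with 1 GGTCA), Tbx18 and Emx2 (0 each). Matches are letters in a window and not evidence of binding.

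Twist2, a repressor known from dermal and other fibroblasts, was at 25.9 and 22.9 TPM in the controls. It was at 20.6, 15.9 and 14.4 TPM in the knockout-labelled libraries. All 3 lay below both controls, mouse 1 closest to them. The control mean was 24.4 ± 2.11 TPM (SD, n = 2) and the knockout-labelled mean 17.0 ± 3.22 TPM (SD, n = 3), a ratio of 0.695. Its log2 fold change of -0.51 with a standard error of 0.21 did not pass (limma, unadjusted p 0.0446, adjusted p 0.358).

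Tcf21, a factor of visceral mesenchyme, was at 132 and 115 TPM for the controls, against 104, 129 and 94.9 TPM for the knockout-labelled libraries. Knockout-labelled mouse 2 lay between the controls and the other 2 below them. The log2 fold change was -0.18 with a 95% interval of -0.63 to 0.26 (limma, adjusted p 0.655). The Tcf21 to Twist2 ratio was 5.08, 5.03 and 5.06 in controls 2 and 3 and knockout-labelled mouse 1, and 8.15 and 6.57 in knockout-labelled mice 2 and 3.

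Hand2, which in uterine stroma lies downstream of progesterone and restrains fibroblast growth factors, was at 9.05 and 5.24 TPM for the controls, against 20.3, 8.72 and 5.19 TPM for the knockout-labelled libraries. Knockout-labelled mouse 1 stood apart at more than double every other library, while mouse 2 lay between the controls and mouse 3 just below control 3. The log2 fold change was 0.46, with a 95% interval of -0.76 to 1.67 (limma, adjusted p 0.683), and without knockout-labelled mouse 1 it was -0.030. The progesterone receptor gene Pgr was lowest in that same library, at 2.90 TPM, beside 104 and 29.5 TPM in the controls and 18.0 and 30.2 TPM in knockout-labelled mice 2 and 3.

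Tbx18, a T-box factor of urogenital and pericyte-like mesenchyme, and Foxf1, a forkhead factor downstream of hedgehog signals, were the low pair. Tbx18 was at 2.75 and 1.61 TPM for the controls, against 2.25, 1.94 and 0.809 TPM for the knockout-labelled libraries. These overlapped, and the log2 fold change of -0.28 (limma, adjusted p 0.727) turned to 0.17 with quantile normalization. Foxf1 was at 2.23 and 3.06 TPM for the controls, against 0.804, 2.55 and 1.19 TPM for the knockout-labelled libraries. Knockout-labelled mice 1 and 3 lay below both controls and mouse 2 between them. Its log2 fold change of -0.59 (standard error 0.36) did not pass (limma, adjusted p 0.488). That was the lowest of the 10 in the main fit, but Twist2 was lower without knockout-labelled mouse 1 (Foxf1 -0.38) or control mouse 3 (Foxf1 -0.42). Twist2 was also lower with library weights (Foxf1 -0.31) or a replicate block (Foxf1 -0.38). Gata6 was lowest with quantile normalization (Foxf1 -0.17). Without knockout-labelled mouse 2 the Foxf1 value was -0.87 (limma, adjusted p 0.332).

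Noncoding RNAs with deposited values lie beside or across 6 of the factors, on the opposite strand. Whether the counting used strand is not given in the sources used here, so reads in shared exons cannot be assigned to one partner with certainty. In GENCODE M21 (mm10) Gata6 lies at chr18:11052064-11085635 and shares 93 exonic bases with Gata6os, 1.43% of its own exonic length. Gata6os was at 33.6 and 28.5 TPM for the controls, against 20.7, 13.5 and 22.2 TPM for the knockout-labelled libraries, all 3 below both controls like Gata6 (log2 fold change -0.72, limma unadjusted p 0.0231, adjusted p 0.312). Wt1, at chr2:105126529-105173616, shares no exonic base with Wt1os, whose start is 19 bases away. Wt1os was at 5.85 and 5.80 TPM for the controls, against 5.04, 5.93 and 7.31 TPM for the knockout-labelled libraries, and so overlapped where Wt1 did not.

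In GENCODE M21 Hand2, at chr8:57320983-57324633, shares 461 exonic bases with Hand2os1, 19.6% of its own. The annotation behind the TPM is not given in the sources used here, and this overlap may be absent from it. Hand2os1 was highest in knockout-labelled mouse 1 at 16.3 TPM, like Hand2, against 10.7 to 12.0 TPM in the other 4. Emx2, at chr19:59458372-59465357, shares 264 exonic bases with Emx2os, 8.79% of its own, and Emx2os stayed between 4.29 and 7.15 TPM with overlapping groups. Fendrr starts 1276 bases from Foxf1 and shares no exonic base with it. It was at 2.15 and 1.92 TPM for the controls, against 1.10, 1.38 and 0.331 TPM for the knockout-labelled libraries (limma, adjusted p 0.416), where the groups did not overlap. Foxf1 lies at chr8:121084386-121088144. The RNA 1700022H16Rik overlaps Osr1. It was at 3.59 and 3.32 TPM in controls 2 and 3, and knockout-labelled mice 1, 2 and 3 had 2.84, 0.997 and 2.44 TPM (log2 fold change -0.58, limma adjusted p 0.476). All 3 lay below both controls, while 2 of the 3 Osr1 values lay above them. Of the remaining factors, Twist2 lies at chr1:91801461-91848028, Tcf21 at chr10:22817281-22820174, Tbx18 at chr9:87702800-87731260, Gata2 at chr6:88193891-88207032 and Osr1 at chr12:9570116-9581500.

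Close relatives of the factors were compared because paralogues can take over each other's sites. Of 14 paralogues 12 were tested and 0 passed the adjusted threshold (limma). At an unadjusted p under 0.05, 1 was higher and 2 were lower, beside 3.7% and 9.87% of all tested genes. The paralogues had a median log2 fold change of -0.38. Gata4, a gonadal and cardiac relative of Gata6, was at 9.20 and 11.4 TPM for the controls, against 16.5, 41.3 and 29.4 TPM for the knockout-labelled libraries (log2 fold change 1.33, standard error 0.36, limma unadjusted p 0.00839, adjusted p 0.228). All 3 lay above both controls, the direction opposite to Gata6. The Gata6 to Gata4 ratio was 9.52 and 7.36 in the controls and 3.83, 1.46 and 1.85 in the others. The summed level of Gata2, Gata4 and Gata6 was 141 and 145 TPM for the controls, against 136, 139 and 128 TPM for the knockout-labelled libraries. All 3 sums lay below both controls, over a narrower range of TPM than that of either Gata4 or Gata6. Gata5 is not in the sum, and whether one factor made up for another was not tested. Gata5 was at 7.07 and 5.27 TPM and at 1.64, 2.20 and 2.77 TPM, below both controls in all 3 (limma, unadjusted p 0.00403, adjusted p 0.197).

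Osr2, the other odd-skipped factor, was more abundant than Osr1 in every library. It was at 199.5 and 219 TPM for the controls, against 178, 117 and 82.7 TPM for the knockout-labelled libraries, all 3 below both controls (log2 fold change -0.80, limma unadjusted p 0.0366, adjusted p 0.345). The Osr2 to Osr1 ratio was 5.66 and 9.14 in the controls and 3.03, 2.53 and 2.57 in the others. Twist1, the close relative of Twist2, was at 38.4 and 37.0 TPM for the controls, against 31.98, 28.5 and 29.8 TPM for the knockout-labelled libraries, again all below both controls (log2 fold change -0.32, limma adjusted p 0.419).

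**Figure D3:**
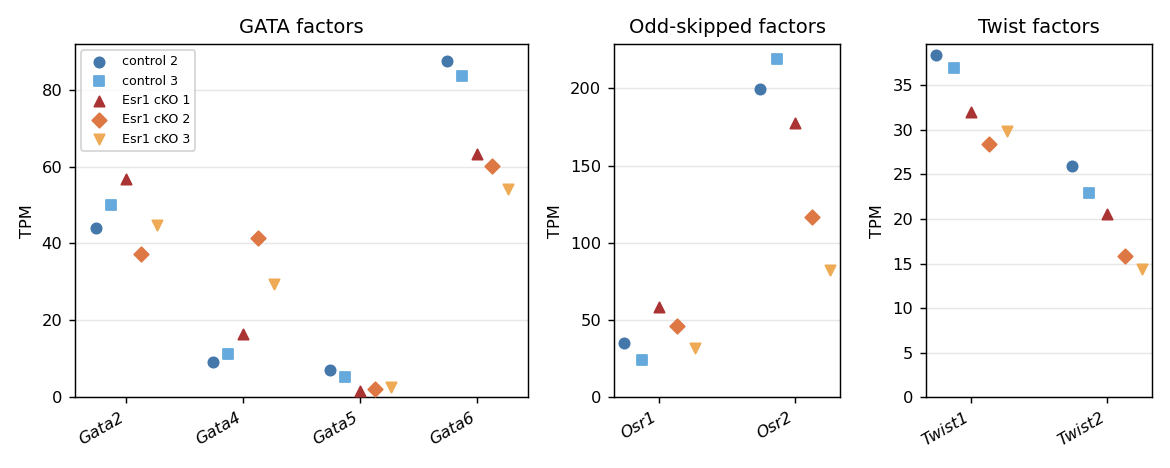
TPM of GATA, odd-skipped and Twist factors (linear axes from 0) with 1 point per mouse. Gata4 lies above and Gata6 below both controls in the 3 knockout-labelled libraries, Osr2 below and Osr1 above or between, and Twist1 and Twist2 both below.

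Factors that act in the same tissue showed no adjusted call either. Of 14 Müllerian duct factors 13 were tested (median log2 fold change 0.37). At an unadjusted p under 0.05, 2 were higher and 0 lower, beside 3.7% and 9.87% of all tested genes. The 2 were Nr2f2, an orphan nuclear receptor of reproductive stroma, at 92.0 and 101 TPM in the controls against 156, 162 and 143 TPM, and Nr5a1, a steroidogenic regulator, at 2.62 and 6.65 TPM against 8.28, 14.2 and 10.3 TPM (limma, adjusted p 0.197 and 0.292). Of 18 general mesenchymal factors 0 were higher and 1 was lower at an unadjusted p under 0.05 (median -0.13). It was Snai2, a zinc-finger repressor, at 84.6 and 38.3 TPM in the controls, which differed from each other, and at 23.6, 27.1 and 24.3 TPM in the others (limma, adjusted p 0.230).

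Of 16 dimer partners, cofactors and inhibitors 3 were higher and 2 lower at an unadjusted p under 0.05 (median 0.17). The shares of all tested genes were 3.7% and 9.87%. Tcf4, an E-protein that pairs with helix-loop-helix factors, was at 89.9 and 85.4 TPM for the controls, against 129, 115 and 104 TPM for the knockout-labelled libraries. Id2, which blocks such pairing, was at 158 and 205 TPM against 352, 242 and 249 TPM, and Basp1, a Wt1 corepressor, at 40.4 and 38.4 TPM against 58.3, 135 and 82.5 TPM. The lower genes were Zfpm2, a GATA cofactor, at 32.5 and 29.0 TPM against 22.0, 19.9 and 21.9 TPM, and Lmo2, which joins GATA complexes, at 52.4 and 33.4 TPM against 33.0, 24.8 and 24.1 TPM. All 5 separated the groups, as did 33.9% of all tested genes. The adjusted p of the 5 ran from 0.256 for Basp1 to 0.366 for Tcf4 (limma).

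Signals tied to the factors were compared next. Of 16 genes 5 were higher and 3 lower at an unadjusted p under 0.05, beside 3.7% and 9.87% of all tested genes. The adjusted threshold was passed by 0, and the median log2 fold change was 0.13 (limma). Amhr2, the receptor for anti-Müllerian hormone and a gene that Wt1 is known to activate, was at 8.89 and 7.59 TPM for the controls, against 17.7, 18.2 and 17.1 TPM for the knockout-labelled libraries (log2 fold change 1.02, standard error 0.18, limma adjusted p 0.141). Like Wt1 it lay above both controls in all 3, as did 11.9% of all tested genes, and a link between them was not tested. The hedgehog target genes Hhip, Ptch1 and Gli1 were also above both controls in all 3, and Hhip went from 1.24 and 2.08 TPM to 8.06, 15.4 and 9.37 TPM (log2 fold change 2.13, limma adjusted p 0.117). Foxf1, listed above as a hedgehog-responsive factor, lay below or between the controls. Fgf1 and Fgf9, growth factors that Hand2 restrains in the uterus, were below both controls in all 3, with Fgf1 at 202 and 107 TPM against 53.5, 60.4 and 15.4 TPM (limma, adjusted p 0.259), while Hand2 overlapped. Fgf2 and Fgf18 overlapped as well. The other genes at an unadjusted p under 0.05 were Wnt5a, at 40.2 and 33.7 TPM against 62.4, 68.5 and 81.0 TPM, and Aldh1a2, which makes retinoic acid, at 64.3 and 53.3 TPM against 27.4, 41.1 and 39.4 TPM (limma, adjusted p 0.162 and 0.281).

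Osr1 and Foxf1 had the highest and lowest fold changes of the factors in the main fit. Genes with the library pattern most like that of either were sought by the root mean square difference of centred log2(TPM + 1) values over the 5 libraries. For Osr1 the nearest of 12605 genes were Atp2b4, Thy1 and Tns1, at 0.094, 0.10 and 0.11 on the log2 scale. For Foxf1 they were Adamts7, Zfp949 and Lmntd1, at 0.081, 0.081 and 0.088. With 5 libraries and this many genes, close matches of this size are a description only.

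Several of the factors are not confined to stroma, so markers of other cells are given beside them. As a scale for all marker lists, 11.9% of all tested genes lay above and 21.9% below both controls in all 3 knockout-labelled libraries. Wt1 and Gata6 are both expressed in mesothelium and granulosa cells. Of 7 listed mesothelial genes, 6 lay below both controls in all 3 knockout-labelled libraries (Msln 123 and 99.6 TPM against 30.4, 45.2 and 44.4 TPM), and Krt19, which epithelium shares, was the exception. With Krt19 the list summed to 890 and 735 TPM against 350, 625 and 863 TPM. Gata6 had the same direction as these 6 and Wt1 the opposite. The 6 granulosa genes summed to 31.6 and 75.2 TPM in the controls and to 131, 229 and 255 TPM in the others, and 5 of the 6 lay above both controls in all 3 (Nr5a2 1.61 and 10.6 TPM against 16.7, 45.4 and 45.8 TPM). Wt1 and Gata4 had the same direction as these genes and Gata6 the opposite. None of the granulosa genes was at 0 in any library. Their part in the Wt1, Gata4, Nr5a1 and Amhr2 levels was not tested.

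Epithelial markers, 9 of 9, lay above both controls in knockout-labelled mice 2 and 3, and 6 of 9 lay below both in mouse 1, with sums of 2828 and 3140 TPM for the controls, against 2041, 11791 and 12693 TPM for the knockout-labelled libraries. The duct factor Pax8 is itself among these 9 markers, at 36.0 and 44.8 TPM against 38.5, 105 and 144 TPM. Pax2, a duct factor that adult epithelium expresses and that is not in the list, was at 5.79 and 5.20 TPM in the controls. In knockout-labelled mice 1, 2 and 3 Pax2 was at 4.37, 13.8 and 15.5 TPM. The stromal list summed to 23681 and 19141 TPM for the controls, against 16205, 12711 and 14694 TPM for the knockout-labelled libraries, with 4 of 8 genes below both controls in all 3, led by the proteoglycan gene Lum (log2 fold change -2.01, limma adjusted p 0.0978). Twist2 and Gata6 had that direction, while Tcf21, Emx2 and Pdgfra overlapped. The part of cell composition in these levels was not tested. Immune markers summed to 2053 and 2646 TPM against 1586, 1039 and 711 TPM, with 6 of 7 genes below both controls in all 3. Endothelial and smooth muscle sums overlapped, at 150 to 251 and 366 to 551 TPM, with 0 of 7 and 1 of 6 genes below both controls in all 3. Pericyte sums did not overlap, at 125 and 131 TPM against 88.0, 117 and 116 TPM, with 3 of 6 genes below. Among genes with a mean of 5 TPM or more, the largest fold change in its list was that of Mcpt4, a mast cell protease (121 and 158 TPM against 30.4, 32.1 and 16.4 TPM), Vwf of endothelium (11.7 and 5.84 TPM against 5.94, 9.22 and 3.13 TPM), Cnn1 of smooth muscle (41.2 and 18.6 TPM against 14.9, 12.0 and 20.2 TPM) and Mcam of pericytes (28.5 and 34.7 TPM against 17.6, 23.9 and 21.8 TPM).

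**Figure D4:**
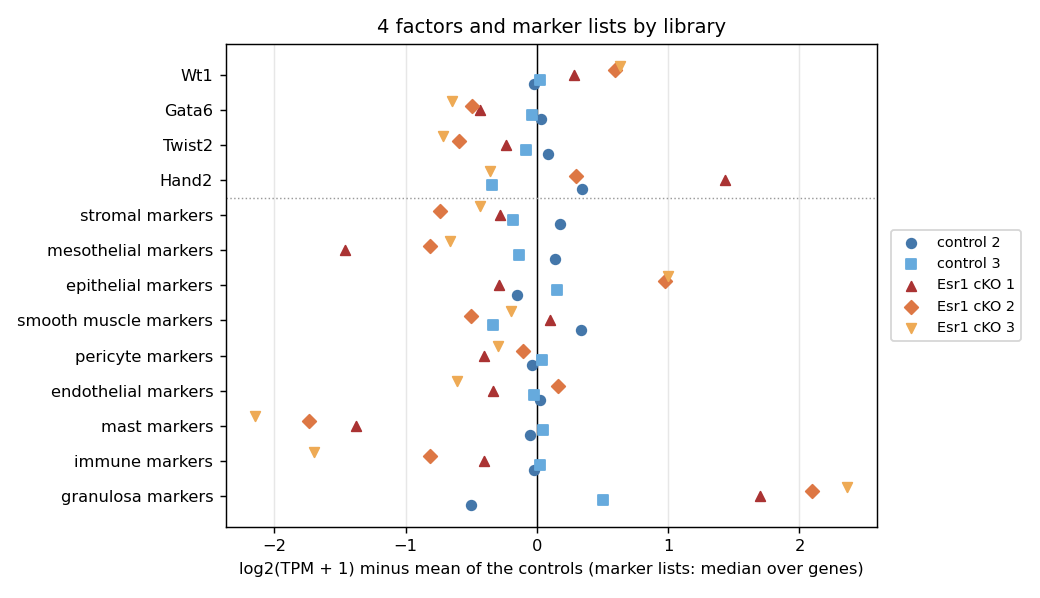
Wt1, Gata6, Twist2 and Hand2 (upper rows) and the median over each marker list (lower rows), as log2(TPM + 1) minus the mean of the controls, with 1 point per library. Granulosa markers lie to the right of both controls in all 3 knockout-labelled libraries, and epithelial markers in mice 2 and 3 only. Stromal, mesothelial, pericyte, mast and immune markers lie to the left of both controls in all 3.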

How the data were processed

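RNA came from sorted YFP-positive oviduct stromal cells of 5 mice, extracted as total RNA and made into libraries with a low-input SMARTer v4 mRNA kit, per the labels' protocols. The authors deposited TPM per gene, which sum to 1000000 in each library. Their table's name says that STAR was used, and the build is mm10 per the submitters' processing notes. The STAR version, counter, annotation, strand setting and filters are not given in the sources used here. Groups and mouse numbers came from the labels. Nothing says that the mice were independent beyond their numbers, so p-values measure only the spread between these libraries.

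The deposited TPM were converted to log2(TPM + 1) and fitted in limma 3.58.1 (R 4.3.3; lmFit, eBayes with trend) on genotype alone. Genes at 1 TPM or more in at least 2 libraries were tested, all 10 factors among them, two-sided, with Benjamini-Hochberg adjustment over all. Fold changes on this scale understate the change of low genes. The fit was also run on simulated data, with set changes larger than that of any of the 10 factors. That run does not bear on changes of their size. Ratios and sums are of TPM.

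Named are all 10 factors, their antisense or divergent RNAs with deposited values, and in each list genes past the threshold or else the largest change at a mean of 5 TPM or more. Beyond that rule, paralogues, partners, signals and markers were named after their values were seen. The factors and lists were chosen with earlier results of these data known. Positions are from GENCODE M21, where Gata6os was matched by its RefSeq synonym, and promoters from RefSeq for GRCm38.p6 (6 of 10 factors matched). The alternatives changed the pseudocount, the filter, the scaling or the variance model, weighted the libraries, added a replicate block or dropped each library. Figures were drawn with matplotlib 3.10.9.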

Additional observations from a re-analysis of the deposited data

How the results depend on the processing

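The count of factors with an adjusted p under 0.05 (limma) was 0 with all libraries. Without a knockout-labelled library it went from 0 to 2, and reached 2 (Wt1 and Gata6) only without mouse 1. That removal takes out the library with the lowest Esr1, and the log2 fold change of Esr1 was then 0.57. Epithelial markers in the knockout-labelled mice kept, 2 and 3, summed to 11791 and 12693 TPM, beside 2828 and 3140 TPM in the controls. The count at an unadjusted p under 0.05 was 3, 2 and 2 without knockout-labelled mice 1, 2 and 3. The factors changed: Wt1, Gata6 and Twist2 without mouse 1, Foxf1 and Gata6 without mouse 2, and Osr1 and Gata6 without mouse 3. Wt1 and Twist2 had an unadjusted p of 0.0845 and 0.116 without mouse 2 (limma). Without mouse 3 these were 0.0694 and 0.120 (limma). Of all tested genes 29.3%, 12.9% and 10.2% had a p under 0.05 without mice 1, 2 and 3 (limma, unadjusted). Without either control no count is given, since the lone control is assumed to vary like the other libraries. The count of factors whose groups did not overlap ranged from 4 to 5 with any library removed, since fewer libraries overlap less. The share of all tested genes was not computed for these removals, so this count is not read as a result about the factors. The median log2 fold change of the factors, -0.11 with all libraries, stayed below 0 in all alternatives. But it ran from -0.17 to -0.032 when each library was removed in turn (-0.032 without knockout-labelled mouse 3, -0.052 without control mouse 2). It was -0.0059 at a mean of 5 TPM or more, where Foxf1 and Tbx18 drop out. The median over all tested genes moved too, from -0.092 without Rpph1 and Rn45s to 0.099 at a mean of 5 TPM or more. With the mouse number as a replicate block 2 factors passed among 1165 higher and 693 lower genes, Wt1 at 0.61 (adjusted p 0.0311) and Gata6 at -0.57 (0.0405), and Hand2 was -0.030, Esr1 0.57 and Pdgfra -0.074. Mouse 1 has no partner, so this rests on mice 2 and 3. Same-numbered libraries deviated from their groups with correlations of -0.060 (mouse 2) and -0.072 (mouse 3). With 2 controls the control deviations mirror each other, so these values are not separate checks. They cannot show whether same-numbered mice were paired, and the labels give only the number.

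Signs turned for 4 of the 10 factors. Emx2 was -0.099 with quantile normalization, -0.030 without Rpph1 and Rn45s and -0.034 without knockout-labelled mouse 3. Tbx18 was 0.17 with quantile normalization. Gata2 was 0.0050 with median-of-ratios scaling, 0.048 without control mouse 3 and 0.10 without knockout-labelled mouse 2. Hand2 was -0.030 without knockout-labelled mouse 1. Esr1 was 0.15 with library weights and with single libraries removed ran from -0.68 to 0.57. On the same removals Pdgfra ran from -0.074 to 0.35, Emx2 from -0.034 to 0.11, Gata2 from -0.20 to 0.10, Hand2 from -0.030 to 0.86, Tbx18 from -0.54 (without control mouse 3) to -0.016 (without control mouse 2), Tcf21 from -0.31 (without knockout-labelled mouse 2) to -0.087 (without knockout-labelled mouse 3) and Foxf1 from -0.87 to -0.38. The cause was not tested. Of 158 alternative values for the 10 factors, 145 kept their direction and side of the threshold, 4 came to pass it and 9 changed sign. Wt1 stayed between 0.39 and 0.61, Gata6 between -0.67 and -0.46 and Twist2 between -0.65 and -0.41.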
